A study of Mus musculus with 8 samples.

Results

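The genes described here build and police the mitotic spindle: mitotic kinesins, centromere and kinetochore proteins, condensin, the chromosomal passenger complex, spindle checkpoint proteins and the spindle kinases. They were taken by symbol, as every listed gene whose name starts with Kif and a digit, Cenp, Ncap, Aurk, Bub1, Ndc80, Nuf2, Spc2 or Ska and a digit, together with Birc5, Incenp, Cdca8, Plk1, Ttk, Mad2l1, Tpx2, Cdc20, Sgo1, Sgo2a and Knl1. This gave 47 of the 1994 listed genes. The rule is by name and not by level, so it also took a few kinesins that carry cargo or sit at the cilium and have no known part in chromosome segregation. Mad2l1 was not listed.

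Bulk RNA-seq was made on cortical bone of the femur, its marrow flushed out with saline, from mice 16 weeks old. The 4 FGFR1-CKO libraries had the genotype DMP1-CreER; Fgfr1f/f, in which a tamoxifen-dependent Cre under the Dmp1 promoter, active in late osteoblasts and osteocytes, removes loxP-flanked Fgfr1. The 4 Control libraries had the genotype Fgfr1f/f, with no Cre named, so carrying Cre and losing Fgfr1 cannot be told apart. Both groups were fed tamoxifen chow (400 mg/kg) for 4 weeks, starting when they were 12 weeks old. The submitters had sequenced 7 FGFR1-CKO and 6 Control samples, and kept the FGFR1-CKO samples with the least Fgfr1 and the Control samples with the most. The table they deposited lists only genes that differed between these groups, with a mean of at least 5 CPM (read counts scaled to the same total in every library). Their thresholds were an adjusted p under 0.05 and a log2 fold change of about 0.5 in either direction. A gene that is not listed is therefore of unknown level here, and that a listed gene differs is no independent evidence, since that is why it is listed.

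Dividing cells copy their chromosomes, compact them with condensin, and attach each centromere to spindle microtubules through the kinetochore. The Ndc80 complex grips the microtubule, Aurora B and its partners break wrong attachments, and the checkpoint kinases hold back Cdc20, the activator of the anaphase-promoting complex, until every kinetochore is attached. Most of these genes are transcribed mainly late in the cell cycle, through promoters that carry a CHR element, bound by the MuvB core of the DREAM complex, and CCAAT boxes, bound by NF-Y. In bone, osteocytes and the mature osteoblasts that precede them do not divide, whereas precursors of red cells, granulocytes and B cells in marrow divide often.

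The library totals ran from 9642436 to 11094287 reads, and the listed genes took 24.2% to 35.1% of them. Behind the members lay at least 36 reads in each library and up to 2764. Fgfr1 measured 275 to 346 CPM in FGFR1-CKO and 506 to 677 CPM in Control, a gap set in part by the choice of samples. All 12 osteoblast and 8 of 10 osteocyte markers were listed, as lower in FGFR1-CKO, so the tissue carried the markers of its label, and Sost, which marks mature osteocytes, was not listed. FGFR1-CKO replicate 3 stood apart in the sum of osteoblast markers, with 120813 CPM against 74806 to 79054 CPM in the other FGFR1-CKO libraries. This sum was mostly Col1a1 and Col1a2, with FGFR1-CKO means of 53083 and 27730 CPM of 88185 CPM. Control replicate 4 stood apart in osteoclast markers, with 3526 CPM against 1610 to 1920 CPM in the other Control libraries. Whether the libraries came from different mice is not stated, and p-values therefore reflect only how these samples vary, which may be technical.

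Promoters are shown first. Whether their motifs bear on the levels of the members in these libraries was not tested. RefSeq (GRCm38.p6, the assembly of mm10) gave a window of 250 bases before to 50 after the start for 42 of the 47 members, and 46 windows in all, since a gene can have several starts. The sequences below hold the last 100 bases before the start, read 5′ to 3′ on the strand of the gene. Capitals mark the letters TTTGAA (the CHR core), CCAAT (the NF-Y box) or GGCGCG (an E2F-like core), or the same letters read from the other strand. Cdc20, Kif11 and Kif22 are shown because a CHR core and an NF-Y box lie close together before their starts. They lie at chr4:118437344-118437443 (minus strand), chr19:37376282-37376381 (plus strand) and chr7:127042421-127042520 (minus strand).
Cdc20: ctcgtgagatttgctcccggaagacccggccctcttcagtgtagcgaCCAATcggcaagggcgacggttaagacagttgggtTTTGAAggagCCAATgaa
Kif11: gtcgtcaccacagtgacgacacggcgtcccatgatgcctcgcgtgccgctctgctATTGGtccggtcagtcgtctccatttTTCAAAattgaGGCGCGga
Kif22: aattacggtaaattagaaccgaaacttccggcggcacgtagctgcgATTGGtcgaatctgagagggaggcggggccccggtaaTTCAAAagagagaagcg

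In these 3 promoters the first base of the CHR core stood at -18, -19 and -17, counted from -1 for the base just before the start. Kif18a, 1 of the 4 members with the largest fold changes, had none of the 3 motifs in its window and is not shown. Ncapg, Ncapg2 and Birc5, the others of these 4, come next. Their windows lie at chr5:45669825-45669924, chr12:116405336-116405435 and chr11:117849137-117849236, all on the plus strand.
Ncapg: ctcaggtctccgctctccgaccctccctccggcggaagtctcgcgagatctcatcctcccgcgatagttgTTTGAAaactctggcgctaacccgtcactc
Ncapg2: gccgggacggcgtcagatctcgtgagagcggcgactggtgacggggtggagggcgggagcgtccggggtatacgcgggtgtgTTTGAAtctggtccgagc
Birc5: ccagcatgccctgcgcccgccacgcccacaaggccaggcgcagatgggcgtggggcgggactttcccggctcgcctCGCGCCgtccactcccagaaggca

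Both condensin promoters held a CHR core close to the start, and that of Birc5 held only the E2F-like core. Kif26a and Kif1a are shown as the members that were listed as lower. Their windows lie at chr12:112146108-112146207 (plus strand) and chr1:93101875-93101974 (minus strand). A second annotated start of Kif1a has a CHR core at -44.
Kif26a: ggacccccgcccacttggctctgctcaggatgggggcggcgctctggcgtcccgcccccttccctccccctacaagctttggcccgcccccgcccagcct
Kif1a: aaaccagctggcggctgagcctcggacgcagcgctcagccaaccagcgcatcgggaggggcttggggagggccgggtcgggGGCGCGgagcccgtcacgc

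Across the whole windows, searched on both strands, the CHR core was present in 25 of 46 member windows (54.3%) and in 17.9% of all 32851 promoter windows. The NF-Y box was present in 69.6% of member windows and 37.4% of all windows, and the E2F-like core in 37.0% of member windows and 19.2% of all windows. Of the 27 CHR matches in members, 22 began at -50 or later (81.5%), against 25.3% of the matches in all promoters. Both a CHR core and an NF-Y box were found in 18 members. Kif18a, Kif26a and Nuf2 had none of the 3 motifs in their windows, and Spc24, Aurkb, Incenp, Tpx2 and Kif20a had no matched window. Among the other listed genes, those higher in FGFR1-CKO that belong to neither the members nor the further mitosis genes named below held the CHR core in 18.9% of windows, and those lower in 9.46%. In the same 2 sets the NF-Y box was present in 49.2% and 31.1% of windows. The E2F-like core was present in 30.5% and 34.6%, close to its share in the members. A match describes the letters of a window and does not show that a factor binds there.

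**Figure D1:**
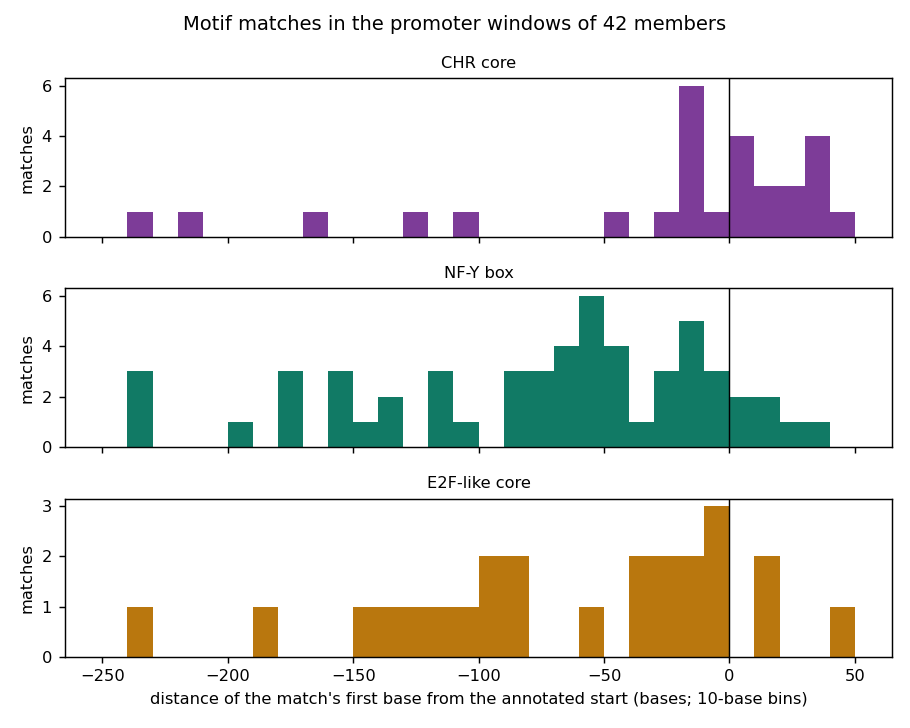
Number of matches (vertical axis) of the CHR core, the NF-Y box and the E2F-like core in 10-base bins of distance from the annotated start (horizontal axis, bases) in the 46 promoter windows of 42 members. CHR matches crowd around the start, with 22 of 27 at -50 or later, while 36 of 55 NF-Y matches lie between -120 and -1.

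The listed spindle genes were higher in FGFR1-CKO bone almost without exception, and the change of those not listed is unknown. In a limma fit of log2(CPM + 1) over all 1994 listed genes, 45 of the 47 members rose (adjusted p under 0.05 and a log2 fold change of at least 0.5), 1 fell and 1 did not pass. Among all listed genes 36.6% rose and 38.4% fell. All 729 genes listed as higher rose, so for these genes the call repeats the listing. At any fold change all 47 had an adjusted p under 0.05, as did 99.4% of listed genes. The median log2 fold change was 0.71 over the members and -0.43 over all listed genes, FGFR1-CKO over Control. In each of the 45 that rose, the lowest FGFR1-CKO library lay above the highest Control library. This held for 35.6% of listed genes, but for 710 of the 729 listed as higher, so it is not particular to the members. Without the libraries that stood apart, FGFR1-CKO replicate 3 and Control replicate 4, 45 members still rose. With any 1 library left out, 715 to 725 of all listed genes rose, against 729, so keeping the call is not particular to the members. In bulk tissue, a change in the share of dividing cells and a change in transcripts per cell cannot be told apart.

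The rule also fits 90 protein-coding genes of GENCODE M21, so 52.2% of the annotated names were listed, against 11.1% of the 18026 genes the authors had tested, a number worked out from their p-values. Listed as higher were 45 of the 90, against 4.04% of the genes tested. The 90 include genes that may not have been expressed. By role, 10 of 12 mitotic kinesins were listed (not Kif14 and Kif20b), 7 of 9 outer kinetochore genes (not Ska1 and Ska2), 6 of 7 checkpoint genes, 4 of 5 passenger complex genes (not Aurkc), 4 of 6 condensin genes and 9 of 17 inner kinetochore genes. All 3 of Plk1, Aurka and Tpx2 were listed. The other 28 names starting with Kif and a digit were grouped by symbol alone, not by what the gene does. Of these 28 only Kif24, Kif26a and Kif1a were listed, and Kif2a, Kif2b and Kif1bp were among those that were not.

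The sizes of the listed rises were alike. Smaller rises could not appear, since the smallest absolute log2 fold change in the authors' values was 0.495. Over the 45 genes that rose, log2 fold changes ran from 0.59 for Cenpv to 0.86 for Ncapg, with an SD of 0.067, while the SD over all 729 listed genes that rose was 0.17 around a median of 0.72. Limma standard errors of single members were 0.064 to 0.14 in this group, about as large as that spread or larger. The order of members by fold change is therefore not resolved. The role medians were 0.81 for condensin, 0.72 for the outer kinetochore, 0.71 for the passenger complex and for mitotic kinesins, 0.70 for the checkpoint, 0.69 for the spindle kinases and 0.67 for the inner kinetochore.

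**Figure D2:**
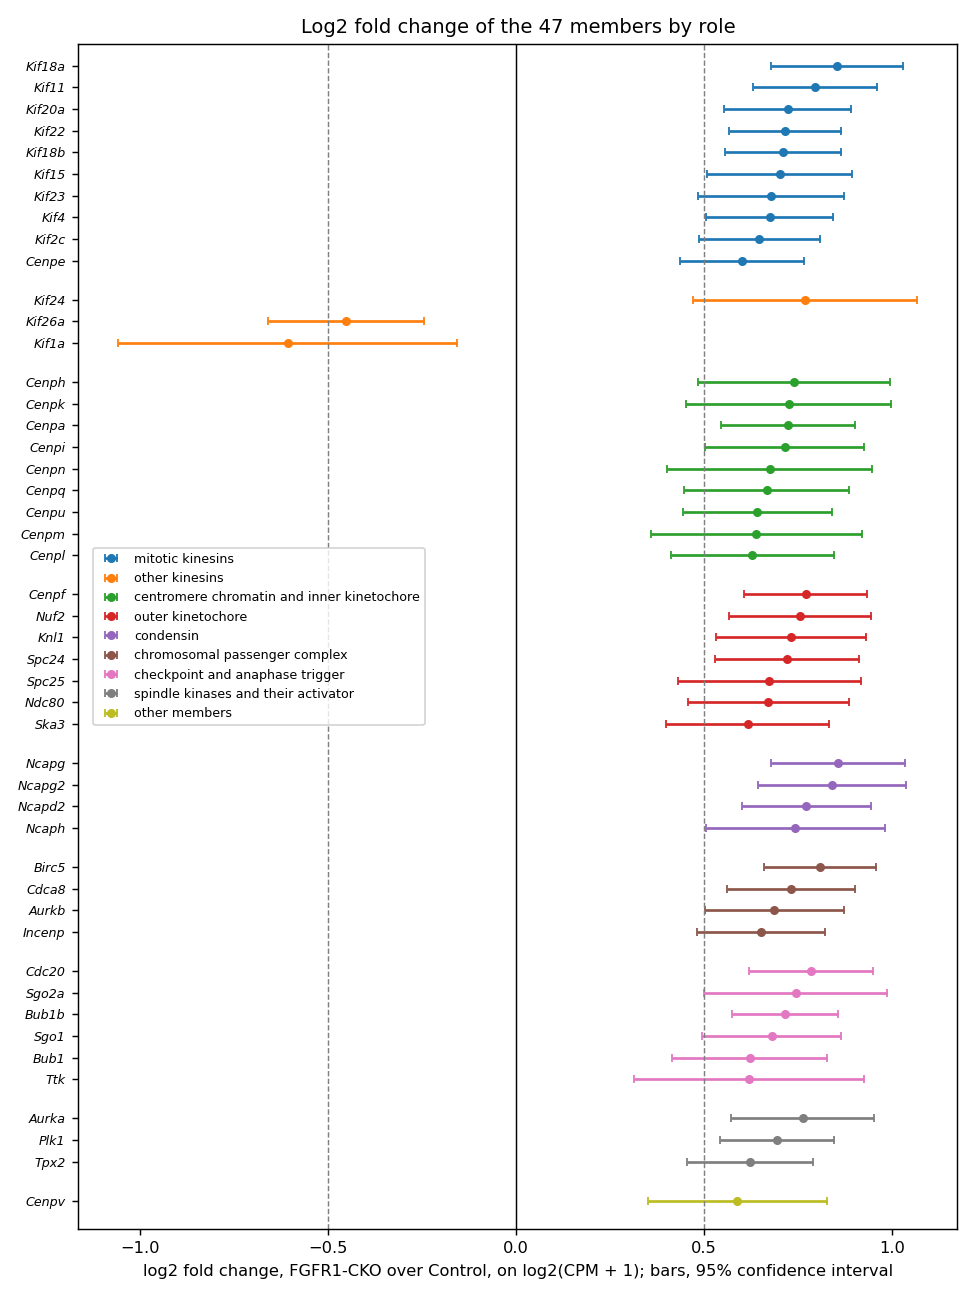
Log2 fold change of each of the 47 members, FGFR1-CKO over Control on log2(CPM + 1), with bars for the 95% confidence interval of the limma fit and dashed lines at the fold threshold of 0.5 in each direction. The 45 genes that rose lie between 0.59 and 0.86 in every role, and Kif26a and Kif1a stand on the other side of 0.

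Mitotic kinesins are motors that push spindle poles apart, move chromosomes or shape microtubule ends, and all 10 listed ones rose. Kif11, which slides antiparallel microtubules to make the spindle bipolar (ENSMUSG00000012443, mm10 chromosome 19, 37376403 to 37421859, plus strand), measured 159, 148, 146 and 141 CPM in FGFR1-CKO replicates 1 to 4, against 86.6, 83.2, 77.8 and 93.5 CPM in Control replicates 1 to 4. The groups were far from overlapping, with Control replicate 4 the highest of its group. On the log2 scale Kif11 rose by 0.80 (95% confidence interval 0.63 to 0.96, standard error 0.075, limma adjusted p = 8.36e-06). Cenpe, which carries chromosomes to the spindle equator, averaged 94.0 ± 6.09 CPM in FGFR1-CKO and 61.6 ± 3.80 CPM in Control (SD, n = 4 each), with a log2 fold change of 0.60. Kif15, a motor that can stand in for Kif11, averaged 81.3 ± 4.32 CPM in FGFR1-CKO and 49.8 ± 5.44 CPM in Control (SD, n = 4 each; log2 fold change 0.70).

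Kif23, a subunit of the centralspindlin complex that organises the site of cell cleavage, averaged 74.7 ± 5.66 CPM in FGFR1-CKO and 46.4 ± 4.58 CPM in Control (SD, n = 4 each; log2 fold change 0.68). Kif18a, which damps the swings of chromosomes at the spindle equator, had the largest fold change of the kinesins. It measured 28.5, 28.1, 25.4 and 29.4 CPM in FGFR1-CKO replicates 1 to 4, against 14.9, 15.1, 13.9 and 15.8 CPM in Control replicates 1 to 4. Every FGFR1-CKO library thus lay well above every Control library (log2 fold change 0.85, standard error 0.080, limma adjusted p = 8.33e-06). The remaining 5 were Kif22 and Kif4, which ride on chromosome arms, Kif20a, needed for cleavage, and the microtubule depolymerase Kif2c and the plus-end motor Kif18b. Their log2 fold changes ran from 0.65 (Kif2c) to 0.72 (Kif20a).

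Of the 3 other kinesins listed, Kif24 was higher in FGFR1-CKO and Kif26a and Kif1a were lower. Kif24, a kinesin-13 of centrioles that holds back the primary cilium, measured 32.8, 40.5, 27.4 and 39.4 CPM in FGFR1-CKO replicates 1 to 4, against 17.1, 20.2, 18.8 and 24.1 CPM in Control replicates 1 to 4. It rose with a log2 fold change of 0.77 and one of the larger standard errors of the members, 0.14 (limma adjusted p = 2.71e-04). FGFR1-CKO replicate 3 and Control replicate 4 came closest to each other.

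Kif26a, an atypical kinesin known from the enteric nervous system of mice (ENSMUSG00000021294, mm10 chromosome 12, 112146208 to 112181747, plus strand), measured 17.3, 17.9, 15.0 and 17.2 CPM in FGFR1-CKO replicates 1 to 4, against 25.3, 20.1, 24.0 and 24.4 CPM in Control replicates 1 to 4. The groups did not overlap, which in this direction held for 54.9% of listed genes, or 1094 of the 1265 listed as lower. Its log2 fold change of -0.45 (standard error 0.094, limma adjusted p = 8.10e-04) missed the fold threshold, and it passed, at -0.56, after the libraries were rescaled by the authors' size factors and, at -0.52, without Control replicate 2. Kif1a, the motor of synaptic vesicle precursors in axons (ENSMUSG00000014602, mm10 chromosome 1, 93015464 to 93101951, minus strand), was the member that fell. It measured 5.70, 6.27, 3.46 and 8.37 CPM in FGFR1-CKO replicates 1 to 4, against 10.98, 8.11, 7.74 and 10.5 CPM in Control replicates 1 to 4. The groups overlapped, since FGFR1-CKO replicate 4 lay above Control replicates 2 and 3. Its log2 fold change of -0.61 (95% confidence interval -1.06 to -0.16, standard error 0.20, limma adjusted p = 0.0136) rested on the low FGFR1-CKO replicate 3: without it the value was -0.41, which missed the fold threshold (limma adjusted p = 0.0287). Both genes stand on the authors' sheet of neuron development genes.

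**Figure D3:**
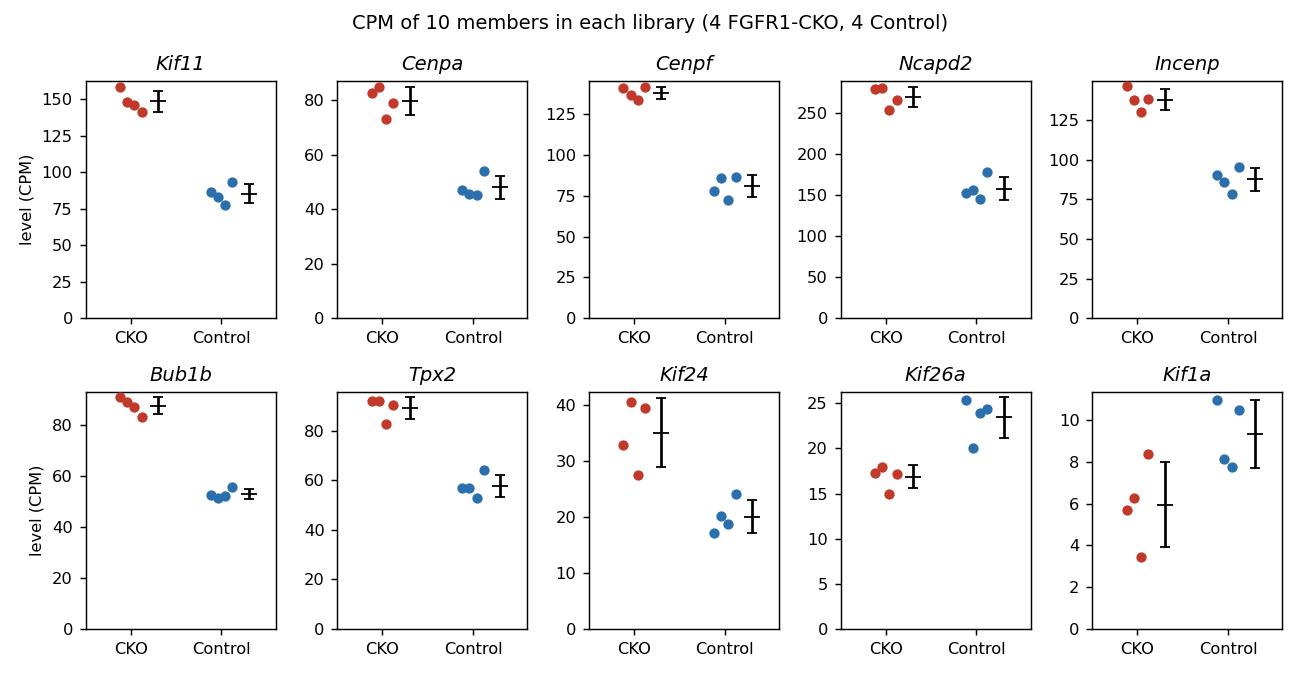
Level in CPM (vertical axes, from 0) of 10 members in each FGFR1-CKO (left, marked CKO) and Control (right) library, replicates 1 to 4 from left to right; black bars give the mean and SD of 4 libraries. The groups are apart in 8 genes with higher FGFR1-CKO values, apart with lower values in Kif26a, and overlapping in Kif1a.

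The centromere is marked by nucleosomes with the histone H3 variant Cenpa, on which the constitutive inner kinetochore is built. Cenpa (ENSMUSG00000029177, mm10 chromosome 5, 30666777 to 30674830, plus strand) measured 82.9, 84.8, 73.1 and 78.9 CPM in FGFR1-CKO replicates 1 to 4, against 47.1, 45.6, 45.3 and 54.3 CPM in Control replicates 1 to 4. FGFR1-CKO replicate 3 was again the lowest of its group and Control replicate 4 the highest of its own, with a wide gap between them (log2 fold change 0.72, standard error 0.081, limma adjusted p = 1.49e-05). The other 8 listed inner kinetochore genes were much lower, at 4.54 to 11.2 CPM in Control means, and all rose. Cenpn, which reads the Cenpa nucleosome, averaged 17.5 ± 1.83 CPM in FGFR1-CKO and 10.7 ± 1.93 CPM in Control (log2 fold change 0.67). Cenpl, its partner, averaged 17.8 ± 1.35 CPM in FGFR1-CKO and 11.2 ± 1.25 CPM in Control (0.63), and Cenpi 15.6 ± 1.15 CPM in FGFR1-CKO and 9.14 ± 0.92 CPM in Control (0.71; SD, n = 4 each for these 3 genes). All of these groups were fully apart. Cenph and Cenpk, which join Cenpi in 1 subcomplex, and Cenpm, Cenpq and Cenpu had log2 fold changes from 0.64 to 0.74. Among the 8 not listed were Cenpc1 and Cenpt, the links to the outer kinetochore.

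At the outer kinetochore 7 listed genes rose. Cenpf, a large protein of the outer kinetochore and its fibrous corona (ENSMUSG00000026605, mm10 chromosome 1, 189640606 to 189688086, minus strand), measured 141, 137, 134 and 142 CPM in FGFR1-CKO replicates 1 to 4, against 78.3, 85.7, 72.6 and 86.9 CPM in Control replicates 1 to 4. Variation within each group was small beside the gap (log2 fold change 0.77, standard error 0.074, limma adjusted p = 8.60e-06). Knl1, the scaffold on which the Bub proteins assemble, averaged 95.05 ± 11.4 CPM in FGFR1-CKO and 56.6 ± 2.82 CPM in Control (SD, n = 4 each; log2 fold change 0.73). The 4 subunits of the Ndc80 complex moved by close amounts, with log2 fold changes of 0.75 for Nuf2, 0.72 for Spc24, 0.67 for Spc25 and 0.67 for Ndc80. Per kilobase of merged exons Spc24 was the highest of the 4 (10.1 CPM per kb in FGFR1-CKO, 5.94 in Control). Ndc80 was the lowest, with 4.30 CPM per kb in FGFR1-CKO and 2.66 CPM per kb in Control. This order rests on the merged lengths, 2573 bases for Spc24 and 6493 for Ndc80. In CPM the order differed, with FGFR1-CKO means of 33.0 for Nuf2, 27.9 for Ndc80, 25.9 for Spc24 and 23.0 for Spc25. Ska3, of the Ska complex that helps Ndc80 hold on to shrinking microtubules, had a log2 fold change of 0.62.

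Condensin had the highest role median and also the most abundant member. Ncapd2, a condensin I subunit (ENSMUSG00000038252, mm10 chromosome 6, 125168007 to 125191701, minus strand), measured 278, 280, 253 and 265 CPM in FGFR1-CKO replicates 1 to 4, against 152, 155, 145 and 178 CPM in Control replicates 1 to 4. No library of either group came near the other group (log2 fold change 0.77, standard error 0.078, limma adjusted p = 9.77e-06). Ncapg, also of condensin I, averaged 51.9 ± 3.17 CPM in FGFR1-CKO and 28.3 ± 2.23 CPM in Control, with a log2 fold change of 0.86 (95% confidence interval 0.68 to 1.03). Ncapg2, of condensin II, averaged 111 ± 6.03 CPM in FGFR1-CKO and 61.9 ± 7.23 CPM in Control, with a log2 fold change of 0.84. Ncaph, which closes the condensin I ring, averaged 48.3 ± 1.97 CPM in FGFR1-CKO and 28.8 ± 4.79 CPM in Control (SD, n = 4 each for these 3 genes; log2 fold change 0.74). The condensin II subunits Ncapd3 and Ncaph2 were not listed. Smc2 and Smc4, the ATPases shared by both condensins, are no members and rose with log2 fold changes of 0.82 and 0.69.

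All 4 partners of the chromosomal passenger complex rose. Incenp, its scaffold (ENSMUSG00000024660, mm10 chromosome 19, 9872296 to 9899551, minus strand), measured 146, 137, 130 and 138 CPM in FGFR1-CKO replicates 1 to 4, against 90.5, 85.8, 78.2 and 95.6 CPM in Control replicates 1 to 4. As for Cenpa, FGFR1-CKO replicate 3 was the lowest and Control replicate 4 the highest of their groups in CPM (log2 fold change 0.65, standard error 0.077, limma adjusted p = 2.04e-05). Birc5 (survivin), which anchors the complex to centromeric chromatin, averaged 69.4 ± 2.57 CPM in FGFR1-CKO and 39.2 ± 1.94 CPM in Control (log2 fold change 0.81, limma adjusted p = 6.90e-06, the smallest of the members). Aurkb, the kinase, averaged 66.6 ± 3.63 CPM in FGFR1-CKO and 41.1 ± 4.03 CPM in Control (0.69). Cdca8 (borealin) averaged 66.3 ± 3.92 CPM in FGFR1-CKO and 39.6 ± 2.97 CPM in Control (0.73; SD, n = 4 each for these 3 genes).

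Checkpoint genes and the trigger of anaphase rose by the same kind of amount. Bub1b, which encodes BubR1, a part of the complex that blocks Cdc20 (ENSMUSG00000040084, mm10 chromosome 2, 118598211 to 118641591, plus strand), measured 91.1, 88.9, 87.2 and 83.3 CPM in FGFR1-CKO replicates 1 to 4, against 52.7, 51.4, 52.1 and 55.7 CPM in Control replicates 1 to 4. It had the smallest standard error of the members, 0.064, at a log2 fold change of 0.72 (limma adjusted p = 8.12e-06). Cdc20 averaged 59.4 ± 2.25 CPM in FGFR1-CKO and 34.2 ± 2.59 CPM in Control (log2 fold change 0.78), and Bub1, a kinase that gathers checkpoint proteins, 30.0 ± 2.74 CPM in FGFR1-CKO and 19.2 ± 1.67 CPM in Control (0.62). Sgo1, a shugoshin that shields cohesin at the centromere, averaged 23.0 ± 1.80 CPM in FGFR1-CKO and 13.99 ± 0.75 CPM in Control (0.68; SD, n = 4 each for these 3 genes). Listed genes of both sides were higher: Bub1b, Bub1 and Ttk on the side of the brake and Cdc20 on that of the trigger. That they rose together follows from their being listed as higher. Mad2l1, Bub3 and Mad1l1, also of the checkpoint, were not listed, so their change is unknown. The log2 fold change of Ttk was 0.62. Without Control replicate 3 Ttk missed the fold threshold. Sgo2a, the second shugoshin, had a log2 fold change of 0.74. It has a close copy in the mouse genome, so its count is uncertain.

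The spindle kinases Plk1 and Aurka and Tpx2, which binds and activates Aurka on the spindle, closed the set. Tpx2 (ENSMUSG00000027469, mm10 chromosome 2, 152847964 to 152895321, plus strand) measured 92.0, 92.0, 82.7 and 90.4 CPM in FGFR1-CKO replicates 1 to 4, against 57.0, 57.1, 53.0 and 64.0 CPM in Control replicates 1 to 4. FGFR1-CKO replicate 3 was apart from the rest of its group and still above every Control library (log2 fold change 0.62, standard error 0.076, limma adjusted p = 2.38e-05). Plk1 averaged 67.6 ± 3.87 CPM in FGFR1-CKO and 41.4 ± 1.35 CPM in Control (log2 fold change 0.69), and Aurka 43.3 ± 4.42 CPM in FGFR1-CKO and 25.0 ± 1.10 CPM in Control (0.76; SD, n = 4 each). Cenpv, a protein found at centromeres that belongs to none of these complexes, measured 9.13, 8.30, 8.74 and 7.65 CPM in FGFR1-CKO replicates 1 to 4, against 5.34, 5.23, 4.61 and 6.01 CPM in Control replicates 1 to 4. It had the smallest rise, a log2 fold change of 0.59, and after size-factor rescaling it missed the fold threshold at 0.49, as did Cenpe at 0.49.

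Scaled to exon length, the members spanned a wide range of levels. Ncapd2 was the highest at 42.9 ± 1.98 CPM per kb in FGFR1-CKO and 25.1 ± 2.27 CPM per kb in Control. Incenp, Plk1 and Cdc20 followed with Control levels of 20.2 ± 1.71, 18.8 ± 0.62 and 18.3 ± 1.39 CPM per kb (SD, n = 4), intervals that overlap. Within the passenger complex the FGFR1-CKO levels were 31.8 CPM per kb for Incenp, 22.6 for Aurkb, 20.4 for Birc5 and 12.8 for Cdca8. The Control levels kept that order, at 20.2, 13.95, 11.5 and 7.65 CPM per kb, and Aurkb and Birc5 lay closest together. Ncapd2 stood above the other condensin I subunits, since Ncaph had 11.2 CPM per kb in FGFR1-CKO and 6.68 in Control, and Ncapg 7.35 in FGFR1-CKO and 4.00 in Control. At the low end stood Cenpk, with 1.55 CPM per kb in FGFR1-CKO and 0.87 in Control, Sgo2a, with 1.74 in FGFR1-CKO and 0.98 in Control, and Kif1a, with 0.64 in FGFR1-CKO and 1.00 in Control. These are lengths of all annotated exons merged, so a gene with long, rarely used exons is set too low.

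**Figure D4:**
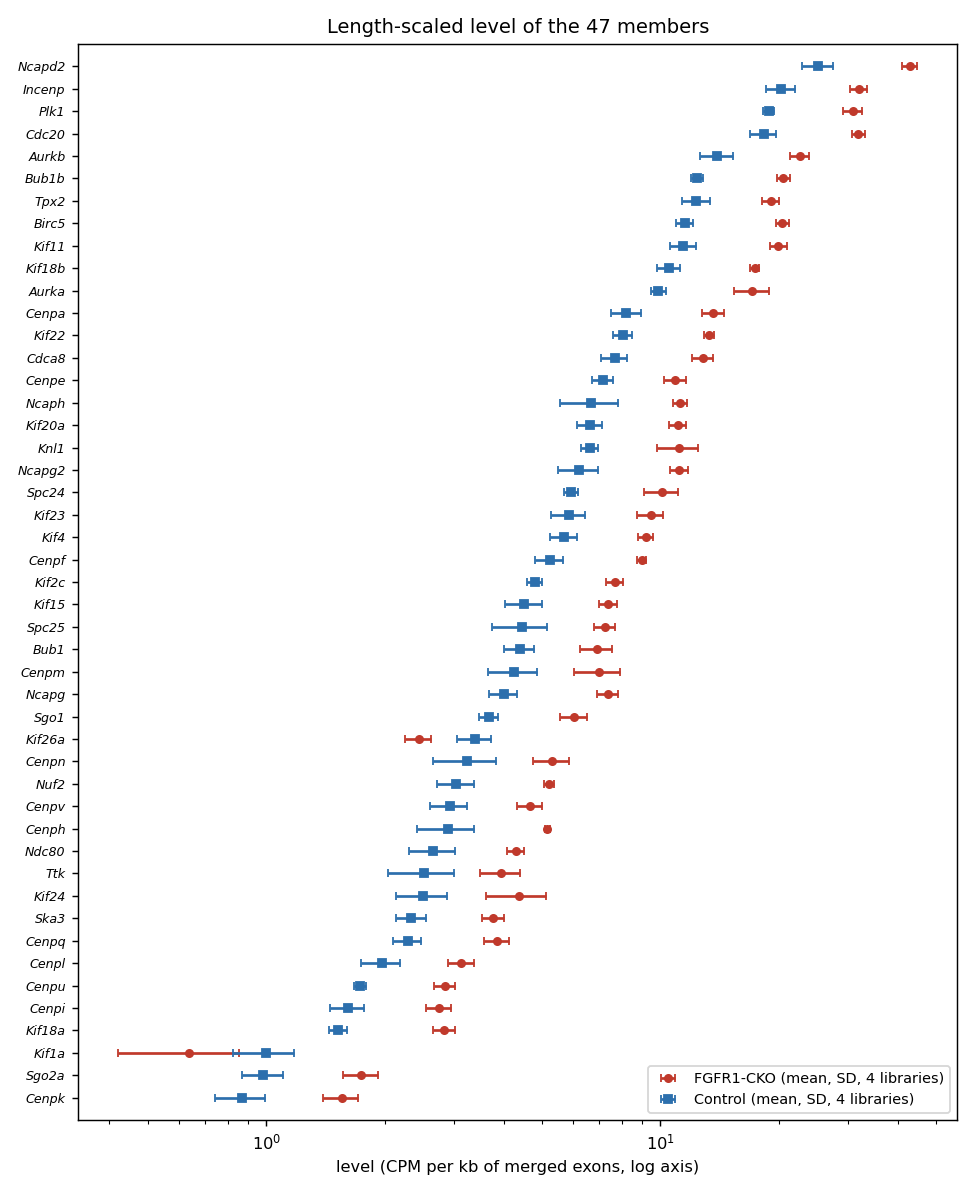
Mean level of each of the 47 members in CPM per kb of merged exons (log axis) in FGFR1-CKO (circles) and Control (squares) libraries, with bars for the SD of 4 libraries, ordered by Control level. FGFR1-CKO lies to the right of Control in 45 genes, from Cenpk (1.55 in FGFR1-CKO, 0.87 in Control) to Ncapd2 (42.9 in FGFR1-CKO, 25.1 in Control), and to the left in Kif26a and Kif1a.

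In CPM the members tended to share their order of libraries within a group, but in FGFR1-CKO this order was lost with another scaling. FGFR1-CKO replicate 1 was the highest of its group in 23 of the 45 genes that rose (51.1%), against 31.4% of all 729 listed genes that were higher, and FGFR1-CKO replicate 3 the lowest in 25 (55.6% against 42.8%). Control replicate 4 was the highest Control library in 32 genes (71.1% against 43.3%) and Control replicate 3 the lowest in 31 (68.9% against 33.3%). With libraries rescaled by size factors, FGFR1-CKO replicate 1 was highest in 11 genes and FGFR1-CKO replicate 3 lowest in 8. In Control, replicate 4 was then highest in 25 genes and replicate 3 lowest in 17. The 45 genes summed to 2613, 2544, 2393 and 2512 CPM in FGFR1-CKO replicates 1 to 4, against 1500, 1501, 1384 and 1644 CPM in Control replicates 1 to 4.

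Other listed genes of mitosis moved the same way. Of 67 further genes listed by name for the spindle, centrosome, cohesin control and cytokinesis, 40 were listed and all 40 rose, with a median log2 fold change of 0.70, where 11.1% of the genes tested by the authors were listed and 36.6% of listed genes rose. The count was 37 after size-factor rescaling and 39 without Control replicate 3. Top2a, the topoisomerase that untangles sister chromatids, averaged 434 ± 11.1 CPM in FGFR1-CKO and 259 ± 17.3 CPM in Control (SD, n = 4 each; log2 fold change 0.74). Smc4 averaged 181 ± 14.2 CPM in FGFR1-CKO and 112 ± 5.72 CPM in Control, and Smc2 118 ± 7.11 CPM in FGFR1-CKO and 66.5 ± 5.53 CPM in Control. Aspm, a protein of the spindle poles, averaged 114 ± 9.95 CPM in FGFR1-CKO and 65.4 ± 6.02 CPM in Control (SD, n = 4 each for these 3 genes; log2 fold change 0.79). Promoter windows of the listed ones held the CHR core in 62.9%, the NF-Y box in 77.1% and the E2F-like core in 45.7%.

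Markers of red cells, neutrophils and B cells were higher in the same FGFR1-CKO libraries, and those of macrophages and osteoclasts lower. Of 21 erythroid markers 20 were listed, all higher, and they summed to 20457, 22920, 24377 and 20923 CPM in FGFR1-CKO replicates 1 to 4, against 6935, 9872, 9503 and 8606 CPM in Control replicates 1 to 4. Neutrophil markers, of which 9 of 19 were listed, summed to 14996 to 17514 CPM in FGFR1-CKO and 9094 to 11243 CPM in Control, and 5 of 18 B cell markers to 96.1 to 136 CPM in FGFR1-CKO and 43.3 to 74.8 CPM in Control. The promyelocyte genes Elane, Mpo, Prtn3 and Ctsg were not listed, nor was any marker of T and NK cells, megakaryocytes or skeletal muscle. Of 10 monocyte and macrophage markers Csf1r and Cd68 were listed, and they summed to 288 to 372 CPM in FGFR1-CKO and 384 to 571 CPM in Control. The 8 listed of 10 osteoclast markers summed to 878 to 1366 CPM in FGFR1-CKO and 1610 to 3526 CPM in Control. Osteoblast markers ran from 74806 to 120813 CPM in FGFR1-CKO and from 135381 to 188325 CPM in Control, and the 8 osteocyte markers from 1668 to 1818 CPM in FGFR1-CKO and from 2636 to 3149 CPM in Control. The ratio of group means was 1.67 for the 45 spindle genes, 2.54 for erythroid markers, 1.61 for neutrophil markers, 1.78 for B cell markers, 0.74 for the macrophage markers and 0.50 for osteoclast markers, FGFR1-CKO over Control. The order of libraries within a group was compared too. Control replicate 4, highest for spindle genes, was the third of 4 for erythroid markers. It was the highest Control library for B cell markers (74.8 CPM), and Control replicate 1 was for neutrophil markers (11243 CPM). In CPM, FGFR1-CKO replicate 1 was highest and replicate 3 lowest for neutrophil markers (17514 and 14996 CPM), as for spindle genes. After size-factor rescaling FGFR1-CKO replicate 1 was highest (16406) and replicate 4 lowest (15124) for neutrophil markers. For spindle genes replicate 3 was then highest and replicate 4 lowest. For B cell markers FGFR1-CKO replicate 2 was highest and replicate 4 lowest. FGFR1-CKO replicate 3 had the highest erythroid sum and the lowest sum of spindle genes in CPM, but the highest of its group in both after size-factor rescaling, an alternative chosen after seeing the data (spindle genes 2472 against 2337 to 2448 in the other FGFR1-CKO libraries, on the rescaled CPM scale). The part of these cells in the spindle genes was not tested.

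**Figure D5:**
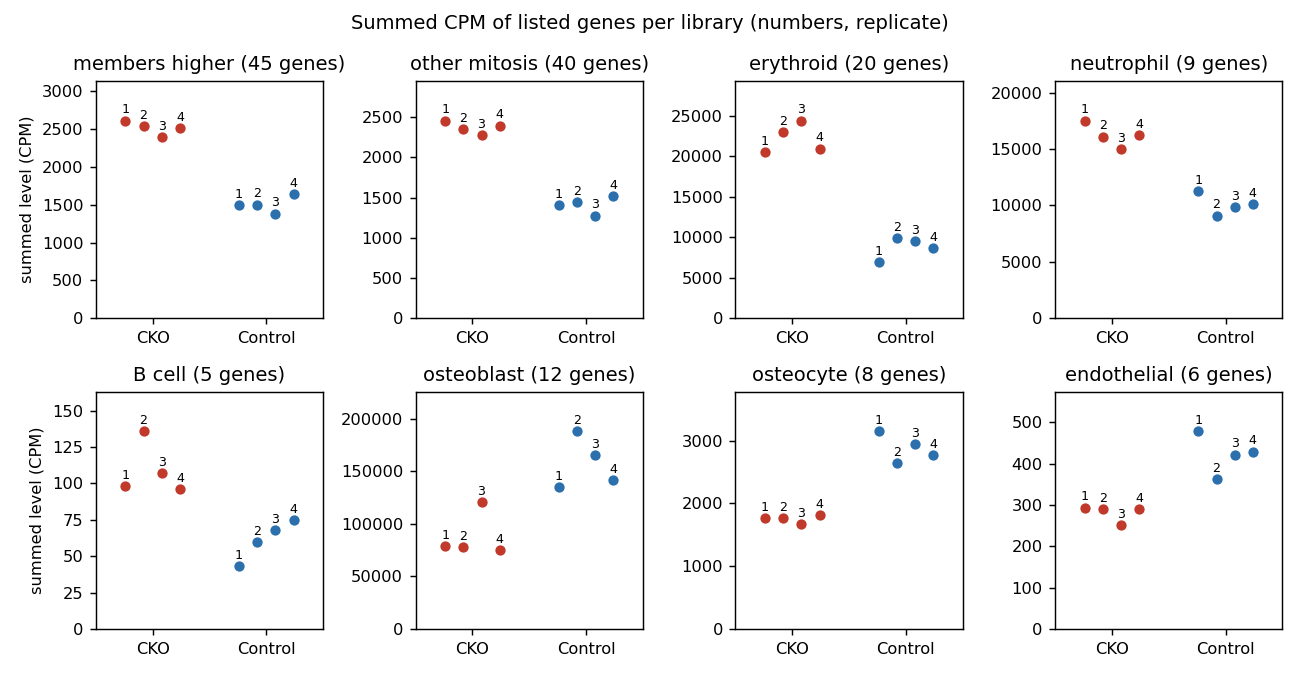
Summed CPM (vertical axes, from 0) per library of the 45 spindle genes that rose (members higher), 40 other listed mitosis genes and the listed markers of 6 cell types, FGFR1-CKO left (marked CKO) and Control right; numbers are replicates. Spindle, other mitosis, erythroid, neutrophil and B cell sums are higher in every FGFR1-CKO library, and osteoblast, osteocyte and endothelial sums are lower in every one.

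The authors' own lists and values cover the same genes. In the authors' deposited table the log2 fold changes of the 45 genes that rose ran from 0.50 (Cenpe) to 0.78 (Kif18a), and those of Kif26a and Kif1a were -0.59 and -0.77. Their sheet of cell cycle and stress genes, made from the genes higher in FGFR1-CKO, held 34 of the 47 members among its 112 symbols. Absent from it were Cenpa, Cenpl, Cenpm, Cenpn, Cenpq, Cenpu, Kif20a, Kif24, Kif4, Sgo1 and Sgo2a besides Kif1a and Kif26a. A list of 627 genes from Ocy454 cells, an osteocyte-like mouse line, held a single member, Cenpl, without giving its direction.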

How the data were processed

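RNA-seq of 8 libraries was analysed, 4 FGFR1-CKO and 4 Control by their genotype labels. Replicates were numbered in accession order. Per the labels' protocols, RNA was depleted of ribosomal RNA, reverse transcribed from random hexamers and sequenced as read pairs. STAR 2.7.9a and Subread 2.0.1 are named in the submitters' processing notes, along with the mm10 build, cutadapt, RSEM, featureCounts, DESeq2 and edgeR, without their roles. The use of strand is not given in the sources used here, so a gene and an overlapping antisense gene cannot be told apart.

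Per the file headers, the authors deposited CPM per library and, beside it, their mean normalized count (a signal averaged over libraries), log2 fold change, its standard error (held as a score) and p-values with adjusted p-values. CPM values were whole reads over 1 total per library in 100% of cases within 0.001 reads. Symbol lists came from 3 other deposited sheets. All 8 columns of library values were mapped to samples. Replicates differed by more than counting noise, with a chi-square of at least 4.70 per degree of freedom.

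Limma 3.58.1 (R 4.3.3; trend, genotype only, 2-sided) was run on log2(CPM + 1) over all 1994 genes, with Benjamini-Hochberg adjustment over them. This scale understates changes of low genes. Calls needed an adjusted p under 0.05 and a log2 fold change of 0.5 or more, or -0.5 or less. The step was tested on simulated data. Positions and exon lengths are from GENCODE M21, in which all 47 symbols matched, and promoters from RefSeq GRCm38.p6.

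The members, gene lists, motifs and the rule for named genes were chosen with earlier results of these data known. The rule took up to 4 members per role by mean CPM, the 3 largest and 3 smallest fold changes, members of opposite direction or not passing, and the 4 most abundant of the other mitosis list. The first of each role has its value in every library. Kif22, Kif18a's library values, Ttk, Sgo2a, Ska3 and the members given by range or only by fold change were added after their values were seen. Alternatives were a pseudocount of 0.5, a mean of at least 10 CPM, size factors recovered from the authors' signal column, totals without globin genes, limma without trend, calls at any fold change, libraries left out and a promoter window of 150 bases. Python 3.11.15 and pandas 2.3.3 did the rest.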

Additional observations from a re-analysis of the deposited data

Results flagged for a closer look

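In each member the highest or lowest library of each group was compared with the other 3 by Dixon's criterion for 4 values. Of 94 groups tested 5 stood out, and chance alone gives about 1 in 20. Tpx2 was low in FGFR1-CKO replicate 3, at 82.7 CPM against 90.4 to 92.0 CPM in the other FGFR1-CKO libraries. Bub1 was low in the same library, at 25.9 CPM against 30.8 to 31.7 CPM. Aurkb was high in FGFR1-CKO replicate 1, at 72.0 CPM against 64.4 to 65.5 CPM in the rest of the group. Ndc80 was high in FGFR1-CKO replicate 4, at 29.9 CPM against 27.0 to 27.5 CPM. Cenpm was low in Control replicate 1, at 5.44 CPM against 7.21 to 7.55 CPM in the other Control libraries.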

How the results depend on the processing

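The count of 45 members that rose stayed between 43 and 45 in every setting that kept all 47, and was 37 of 38 with a mean of at least 10 CPM. Among all listed genes 715 to 725 rose with 1 library left out and 608 with a mean of at least 10 CPM, against 729. Over all settings the log2 fold changes of the 45 members ran from 0.48 to 0.97. Size-factor rescaling shifted the log2 fold changes of listed genes by a median of -0.11. The median of the members was then 0.60, against 0.71, and among all listed genes 651 rose and 1156 fell, against 729 and 766. The count of members that fell, 1 in the fit as reported, was 2 after size-factor rescaling, 2 at any fold change (where 1254 listed genes fell), 0 with a mean of at least 10 CPM, 0 without both Control replicate 4 and FGFR1-CKO replicate 3, and 0 to 2 with 1 library left out. Kif1a then had a log2 fold change of -0.35 without both libraries (limma adjusted p = 0.0628; range over settings 0.00290 to 0.0628). With 1 library left out, the members' median ran from 0.68 to 0.74. The library order moved with rescaling, to 11 genes with FGFR1-CKO replicate 1 highest, 8 with FGFR1-CKO replicate 3 lowest and 17 with Control replicate 3 lowest. In a promoter window of 150 bases, 47.8% of member windows held the CHR core, 56.5% the NF-Y box and 28.3% the E2F-like core, against 8.01%, 23.4% and 14.7% of all promoters, a shorter window holding fewer matches. Of 502 values of single named genes, 496 kept their call, 4 lost it, 2 gained it and 0 changed sign. The cause of these moves was not tested. A count test with edgeR or DESeq2 was not run: the deposited unit is CPM, and the whole reads worked back from it cover only genes selected for differing. No paired analysis was possible because the labels give no replicate numbers. Members with few reads, 36 to 74 at the lowest in a library, are the least precise.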
